A study of Mus musculus with 2 samples.

Results

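The genes described here encode enzymes that attach ubiquitin or remove it: the activating enzymes (E1, symbols Uba with a digit), the conjugating enzymes (E2, Ube2), the cullin scaffolds (Cul with a digit), the F-box substrate receptors (Fbxo, Fbxw, Fbxl) and the ubiquitin-specific proteases (USP, Usp with a digit). A gene belonged to the set when its symbol fitted this pattern and at least 1 probe set of the array named it alone. This gave 112 of the 12393 genes on the arrays, read by 194 probe sets, with 3 E1, 27 E2, 7 cullin, 36 F-box and 39 USP genes. Of 187 protein-coding symbols in RefSeq that fit the pattern, these 112 were represented, and the others were not analysed here. The rule used no expression value.

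RNA came from unstimulated lamina propria cells of the small intestine of 8-week-old C57BL/6 mice, with no gene deletion or treatment named. The first population was dendritic cells, gated as CD11c+MHCII+. The other was eosinophils, gated as CD11b+CD11c(int)MHCII-SiglecF+. Each population was read on 1 array, and the sources used here do not give the number of mice pooled.

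Ubiquitin is a small protein that an E1 activates with ATP and passes to the active cysteine of an E2. An E3 ligase then brings the loaded E2 to a substrate. Cullins are the scaffolds of the largest E3 class, holding a RING subunit at 1 end and a substrate receptor at the other, and Cul1 uses F-box proteins as its receptors. USPs are cysteine proteases that take ubiquitin off again. Parallel cascades attach the ubiquitin-like proteins NEDD8, SUMO and ISG15. In dendritic cells, ubiquitin on MHC class II and CD86 is known to set how long these molecules stay on the surface, and in all leukocytes ubiquitin chains relay signals to NF-kappaB.

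Signals are given in the linear units of the deposited table, 1 value per probe set, and a gene with more than 1 probe set was represented by that of highest mean log2 signal. The floor was 134.7 units, the median of all signals on both arrays. A signal under the floor was raised to it, so a fold is only a lower bound where 1 array was under it, and a gene under it on both arrays was taken as not measured. Without replicate arrays no test was made, and each fold describes these 2 arrays. A measure of spread came from probe sets that read the same gene, whose log2 differences had a pooled SD of 0.73 (1.65-fold) over all genes and 0.67 (1.59-fold) over 26 members with several probe sets above the floor on both arrays. Signals of different genes were not compared with each other, since probe sets bind with different strength.

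The arrays followed their labels in most marker genes of these populations. Of 9 dendritic cell markers 8 were at least 4-fold higher in dendritic cells, all but Zbtb46 (592 units against 400 units). Of 5 measured eosinophil markers 4 were at least 4-fold higher in eosinophils, and Il5ra at least 3.90-fold. Prg2 was under the floor on both arrays. Of markers of other cells, 1 of 6 T cell genes was above the floor (Cd3e, 557 units in dendritic cells and 336 in eosinophils), none of 5 B and plasma cell genes, 3 of 6 epithelial, 1 of 6 mast cell and 1 of 5 neutrophil genes. Of 6 macrophage genes 5 were above it, and 2 of them were at least 2-fold higher in dendritic cells, Cd68 (2573 units against 672 units) and C1qb (363 units against 37.5 units). Mertk of the same list lay on the other side, with 59.1 units in dendritic cells and 258.5 in eosinophils. The summed signal of the macrophage list was 4315 units in dendritic cells and 1860 in eosinophils. Above the floor were also 3 of 4 stromal and 2 of 3 endothelial genes, of which Pdgfra and Pecam1 gave 789 and 647 units in eosinophils, against 54.8 and 55.8 units in dendritic cells. The stromal gene Col1a1 lay on the other side, with 225 units in dendritic cells and 99.2 in eosinophils. The part of these other cell types in the differences of the ubiquitin genes was not tested. The ratio of 3′ to 5′ control signals was 6.58 in dendritic cells and 9.81 in eosinophils for Gapdh, and 9 and 6.38 for beta-actin. Spike controls were 2.06-fold higher on the eosinophil array, which is 1.04 on the log2 scale. With the arrays scaled to these controls, the measured members on the eosinophil side went from 48 of 88 to 15 of 91. Over all measured genes the same scaling took this count from 4592 of 7994 to 1791 of 8147.

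Most ubiquitin enzyme genes were under 2-fold apart between the populations. In these sorted bulk samples, a change in RNA per cell and a change in the share of cells that hold it cannot be told apart. Of the 112 genes, 88 passed the floor, 71 of them on both arrays, 10 in eosinophils only and 7 in dendritic cells only. Among the 88, 54 were above the floor on both arrays and under 2-fold apart, 14 had only a lower bound that was under 2-fold, 10 were at least 2-fold higher in eosinophils and 10 were at least 2-fold higher in dendritic cells. Of all 7994 genes measured the same way, 19.0% and 15.5% passed 2-fold in these directions. Scaling to the spike controls changed the split of 10 and 10 to 2 and 36, and centring on the median to 7 and 17. Over all genes the same scalings gave 489 and 3005 of 8147, and 1129 and 1601 of 7928. At 4-fold, 2 genes were higher in eosinophils, the F-box gene Fbxo9 and the E2 gene Ube2d1, and none in dendritic cells, where 5.35% of all measured genes passed in each direction. In either direction, 22.7% of the 88 passed 2-fold and 2.27% passed 4-fold, against 34.5% and 10.7% of all measured genes.

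The median log2 difference, eosinophils minus dendritic cells, was 0.12 for the 88 genes and 0.16 for all measured genes. The median size of the difference, whatever its sign, was 0.54 for the 88 genes and 0.68 for all measured genes. The middle 50% of the genes, from the first to the third quartile, lay between -0.50 and 0.60, and between -0.53 and 0.78 for all. Quantile normalization and loess on signal put 2 genes, Ube2f and Usp10, past 4-fold in dendritic cells and left only Fbxo9 past it in eosinophils. The scaling to spike controls gave a median of -0.73 for the members and -0.63 for all genes.

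**Figure D1:**
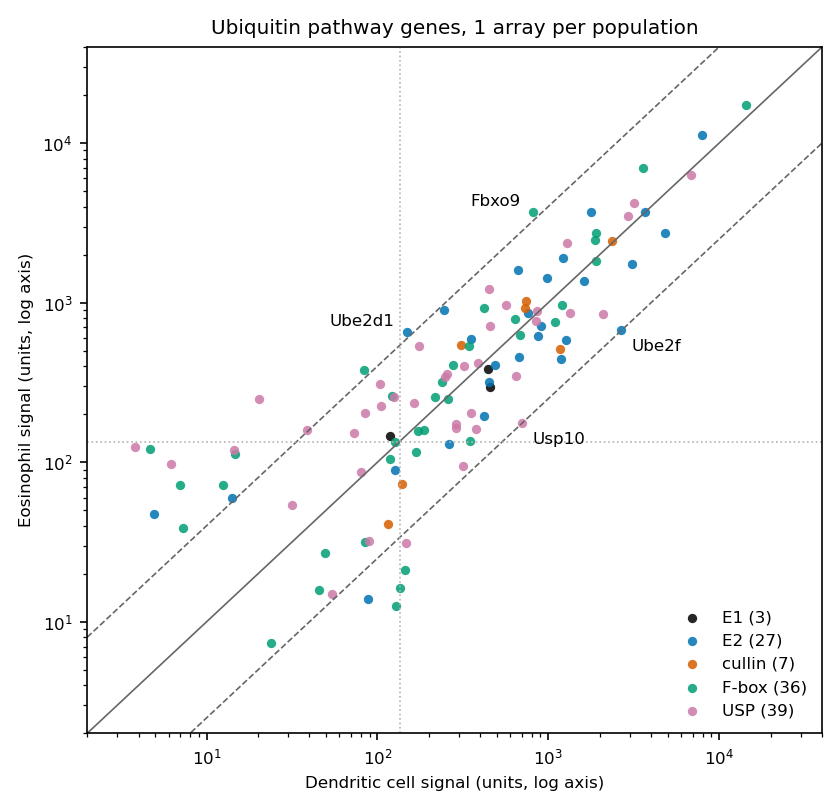
Signal of each of the 112 genes on the dendritic cell array (x axis) and the eosinophil array (y axis), in units on log axes, coloured by family with the number of genes in brackets. The solid line marks equal signal, the dashed lines 4-fold, and the dotted lines the floor of 134.7 units; signals are plotted without the floor. Among genes that passed the floor on each array, Fbxo9 and Ube2d1 lie above the upper dashed line, Ube2f and Usp10 lie at the lower one and the others lie between.

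Among members above the floor on both arrays, Fbxo9 and Ube2d1 were furthest towards eosinophils, and Ube2f and Usp10 furthest towards dendritic cells. Members with only a lower bound, such as Usp8 and Fbxl20, cannot be ranked with them. Fbxo9 is the receptor of a Cul1 ligase with known substrates in mTOR signalling. It gave 811 units in dendritic cells and 3710 in eosinophils, 4.58-fold. Its second probe set gave 95.5 units and 396 units, a log2 difference of at least 1.56 against 2.19 for the first, so both probe sets were higher in eosinophils. Ube2d1 is a broadly used ubiquitin E2. It gave 148 units in dendritic cells and 657 in eosinophils, 4.43-fold, from a single probe set. The dendritic signal of Ube2d1 lay between the floor and 195.7 units, the 95th percentile of 41 genes of germ cells, lens, hair, retina and olfactory neurons taken as background. With the floor raised to that level its log2 difference was at least 1.75, under 4-fold.

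Ube2f is the E2 that, with the RING protein Rnf7, places NEDD8 on Cul5. It gave 2671 units in dendritic cells and 671 in eosinophils, 3.98-fold higher in dendritic cells. All 4 of its probe sets pointed that way, with log2 differences from -2.93 to -0.92. These 4 are of types that can bind several transcripts, so Ube2f had no value with such probe sets left out. Usp10, a protease that acts on p53 and binds the stress granule proteins G3BP, gave 699 units in dendritic cells and 176 in eosinophils. That is 3.97-fold, from a single probe set. Both genes lay just short of 4-fold on the deposited scale with the probe set that stood for them. Other probe sets of Ube2f were past it, at -2.17 and -2.93.

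Promoters are given for Fbxo9 and Ube2d1, the members past 4-fold, and for Ube2f at the other end of the range, chosen after its values were seen. Each is the 250 bases before a RefSeq start (assembly GRCm38.p6), 5′ to 3′ on the strand of the gene. Capitals mark the GC box GGGCGG and the CCAAT box CCAAT, on either strand. Fbxo9 has a start after chr9:78109066-78109315 and another after chr9:78108657-78108906, both on the minus strand. Ube2d1 starts after chr10:71285263-71285512, on the minus strand. Ube2f has starts after chr1:91250054-91250303 and chr1:91250316-91250565, both on the plus strand.
Fbxo9, first start: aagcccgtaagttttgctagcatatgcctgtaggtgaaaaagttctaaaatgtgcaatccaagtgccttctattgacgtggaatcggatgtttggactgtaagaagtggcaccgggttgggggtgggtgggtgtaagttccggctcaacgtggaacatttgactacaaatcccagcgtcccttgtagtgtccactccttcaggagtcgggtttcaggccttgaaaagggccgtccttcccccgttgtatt
Fbxo9, second start: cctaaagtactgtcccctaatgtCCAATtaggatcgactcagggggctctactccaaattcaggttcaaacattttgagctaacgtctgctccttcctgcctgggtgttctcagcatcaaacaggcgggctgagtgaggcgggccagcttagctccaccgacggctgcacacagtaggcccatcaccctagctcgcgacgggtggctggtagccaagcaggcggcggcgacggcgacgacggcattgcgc
Ube2d1: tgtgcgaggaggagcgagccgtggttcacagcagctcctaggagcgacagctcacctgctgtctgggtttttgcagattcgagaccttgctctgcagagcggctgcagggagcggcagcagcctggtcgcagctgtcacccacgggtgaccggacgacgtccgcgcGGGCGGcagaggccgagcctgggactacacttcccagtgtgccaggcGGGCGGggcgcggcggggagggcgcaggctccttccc
Ube2f, first start: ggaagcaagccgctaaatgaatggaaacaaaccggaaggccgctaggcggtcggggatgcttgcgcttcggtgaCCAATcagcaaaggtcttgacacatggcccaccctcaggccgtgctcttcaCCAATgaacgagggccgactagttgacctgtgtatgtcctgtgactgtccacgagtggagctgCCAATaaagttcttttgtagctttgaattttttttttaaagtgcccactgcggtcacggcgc
Ube2f, second start: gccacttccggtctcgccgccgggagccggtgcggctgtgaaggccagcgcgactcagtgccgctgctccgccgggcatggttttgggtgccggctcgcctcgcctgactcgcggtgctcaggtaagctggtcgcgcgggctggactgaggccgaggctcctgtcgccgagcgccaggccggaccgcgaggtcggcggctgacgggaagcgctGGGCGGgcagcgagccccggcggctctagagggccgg
The upstream sequence of Ube2d1 held 2 GC boxes and 23 CG dinucleotides. The first window of Fbxo9 held neither motif and 10 CG dinucleotides, and its second held 1 CCAAT box and 17 CG dinucleotides. The first window of Ube2f held 3 CCAAT boxes and its second 1 GC box with 35 CG dinucleotides. None of the 5 windows held the interferon-stimulated response element or the TATA box TATAAA.

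RefSeq promoters were found for 82 of the 112 genes, 102 windows in all, and their base composition was described in the same 250 bases. The median window held 18 CG dinucleotides, against 13 for the 12566 windows of genes on the arrays and 6 for all 32851 windows of the table. Among members the median was 20 for the measured genes and 9 for genes under the floor on both arrays, while for all genes on the arrays the corresponding medians were 16 and 7. The GC box was present in 65.7% of the members' windows and in 51.3% of those of genes on the arrays. The CCAAT box was present in 22.5% against 34.7%, and the TATA box in 2.94% against 8.81%. The interferon-stimulated response element was found in 5 of the members' windows, 4.90% against 2.74%. It occurred upstream of Fbxo36, Cul1, Usp49 and both starts of Fbxl15. Motifs were searched separately on both strands, so matches of different motifs may overlap, and a match is not evidence of binding.

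None of the 3 E1 genes passed 2-fold, where 34.5% of all measured genes did. Uba7, the activating enzyme of the interferon-induced modifier ISG15, gave 458 units in dendritic cells and 297 in eosinophils, 1.54-fold higher in dendritic cells. Its other probe sets differed by 0.067 and by at least 0.95 on the log2 scale in the opposite direction, so the direction of Uba7 depended on the probe set. Uba3, the catalytic subunit of the NEDD8-activating enzyme, gave 446 units and 382 units (1.17-fold). Its 3 probe sets agreed, between -0.27 and -0.10. Uba1y, the Y-linked relative of the main ubiquitin E1, lay near the floor with 118 units and 146 units, and its probe set is of a type that can bind related transcripts.

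Of 27 E2 genes, 23 were measured, and 34.8% of these passed 2-fold in either direction, near the 34.5% of all measured genes. In this family 4 were at least 2-fold higher in eosinophils (Ube2d1, Ube2e1, Ube2a and Ube2b) and 4 in dendritic cells (Ube2f, Ube2j1, Ube2v1 and Ube2e2). The family median was -0.26, and it stayed below 0 under each of the 5 other scalings, from -1.29 with spike controls to -0.17 with the housekeeping list. It was -0.078 with probe sets averaged and turned to 0.083 with probe sets that can bind several transcripts left out.

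Ube2d and Ube2e enzymes, close relatives that serve many E3 ligases, did not share a direction. Ube2e1 gave 245 units in dendritic cells and 903 in eosinophils, 3.69-fold. In contrast to Ube2e1, Ube2e2 was higher in dendritic cells, with 420 units against 195 units (2.15-fold). Ube2e3 gave 766 units and 857 units, 1.12-fold apart, so the 3 paralogs ranged from a dendritic cell excess to an eosinophil excess. Ube2d3 gave 7988 units and 11300 units (1.42-fold), and its 6 measured probe sets ran from -0.29 to 1.14. Ube2d2a gave 1619 units and 1375 units, with 4 probe sets from -0.53 to 0.38. For both genes the probe sets disagreed in sign, and near-identical coding sequences within the Ube2d group may let probe sets bind each other's transcripts. Ube2d2b was under the floor on both arrays.

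Ube2a and Ube2b, the mammalian Rad6 enzymes that ubiquitinate histone H2B and act in DNA damage tolerance, were both higher in eosinophils. Ube2a gave 665 units in dendritic cells and 1596 in eosinophils (2.40-fold), and its probe sets differed by 1.26 and 1.55 on the log2 scale. Ube2b gave 1782 units and 3694 units (2.07-fold), and its other probe set differed by 0.47. All 4 probe sets of the pair were higher in eosinophils, and with spike controls the log2 differences of Ube2a and Ube2b were 0.22 and 0.011.

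Ube2n builds lysine-63-linked signalling chains with an inactive partner, Ube2v1 or Ube2v2. Ube2n itself gave 3691 units in dendritic cells and 3700 in eosinophils, a log2 difference of 0.0035. Ube2v1 gave 1266 units and 582 units, 2.18-fold higher in dendritic cells. Ube2v2 gave 352 units and 596 units, 1.70-fold higher in eosinophils, and its other probe set differed by at least 1.13 on the log2 scale. On the deposited scale the partner genes lay on opposite sides of Ube2n.

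Ube2j1 is a membrane-anchored E2 of endoplasmic reticulum-associated degradation, which clears misfolded proteins. It gave 1192 units in dendritic cells and 443 in eosinophils, 2.69-fold, with its 2 probe sets at -1.45 and -1.43. Its relative Ube2j2 gave 870 units and 615 units (1.42-fold), and Ube2g2 gave 450 units and 317 units (1.42-fold). Ube2g1 lay on the other side, with 990 units and 1424 units (1.44-fold higher in eosinophils).

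Ube2c and Ube2s, which start and extend chains for the anaphase-promoting complex in mitosis, were both higher in dendritic cells. Ube2c gave 263 units in dendritic cells and lay just under the floor in eosinophils with 129 units, at least 1.95-fold. Ube2s gave 672 units and 458 units (1.47-fold). Ube2t, an E2 of the Fanconi anaemia repair pathway, was under the floor on both arrays. In a list of 20 proliferation genes, 15 were measured, and 6 were at least 2-fold higher in dendritic cells, among them Rrm2 (2715 units against 360 units) and Top2a (633 units against 17.7 units). None was at least 2-fold higher in eosinophils, and 9 of the 15 were above the floor in dendritic cells only. Over all measured genes 15.5% passed 2-fold towards dendritic cells. Whether cycling cells account for the 2 E2 genes was not tested.

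The other E2 genes stayed under 2-fold. Ube2h (1.76-fold), Ube2k (1.76-fold), Ube2z (1.27-fold) and Ube2r2 (1.20-fold) were higher in dendritic cells. Probe sets of Ube2k ran from -0.82 to 0.99 on the log2 scale. Ube2w, an E2 that modifies protein N-termini, was 1.56-fold higher in eosinophils. Ube2o and Ube2l6 lay under the floor on both arrays. Ube2l6 is the E2 of ISG15 and gave 88.1 units in dendritic cells and 13.9 in eosinophils.

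Of 7 cullin genes, 6 were measured and 1 passed 2-fold, 16.7% against 34.5% of all measured genes. Cul2, the scaffold that joins elongin B and C to receptors such as Vhl, gave 1175 units in dendritic cells and 511 in eosinophils, 2.30-fold. Its second probe set was under the floor on both arrays, and averaging the probe sets turned the log2 difference from -1.20 to 0.46. Cul1, the scaffold for F-box proteins, gave 734 units and 925 units (1.26-fold higher in eosinophils). Cul3, which recruits BTB proteins such as Keap1, gave 2370 units and 2420 units (1.02-fold). With spike controls Cul1 turned to -0.71 and Cul3 to -1.01 on the log2 scale.

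The paralogs Cul4a and Cul4b, which use Ddb1 as adaptor, were higher in eosinophils by 1.75-fold and 1.39-fold, and turned to -0.23 and -0.57 on the log2 scale with spike controls. Cul4a gave 309 units in dendritic cells and 541 in eosinophils, and Cul4b gave 738 units and 1025 units. A second probe set of Cul4b differed by -0.11. Cul9 was at the floor, with 140 units and 72.7 units, and Cul7 was under it on both arrays. The cullin median of 0.18 became -0.073 with median centring and -0.59 with spike controls.

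**Figure D2:**
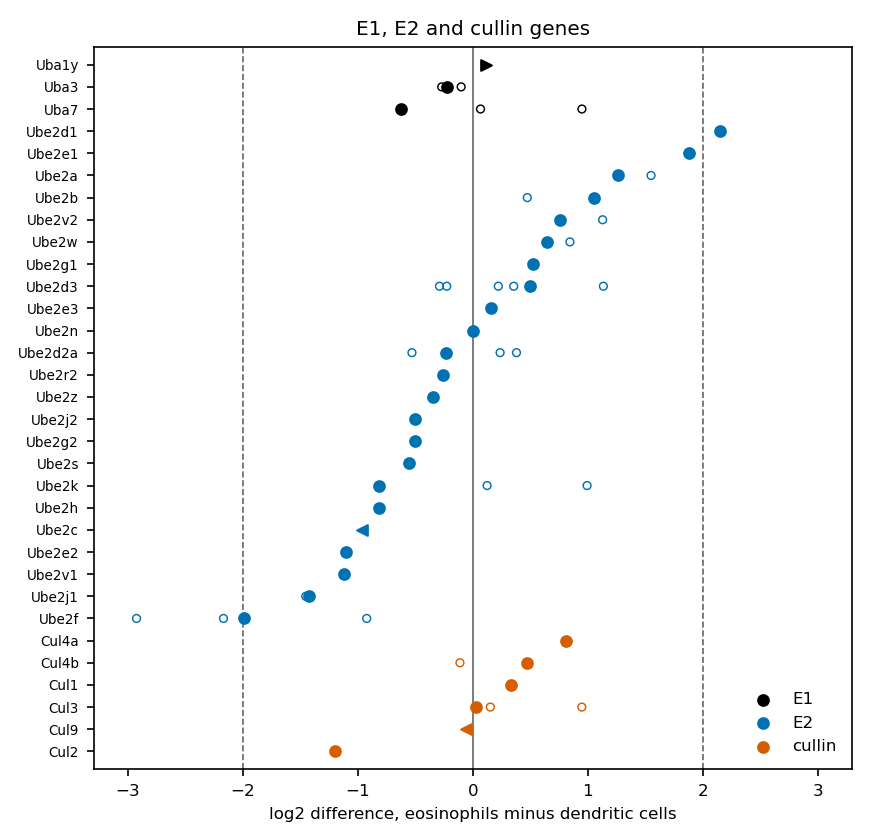
Log2 difference, eosinophils minus dendritic cells, of each measured E1, E2 and cullin gene; filled symbols are the probe set that stands for the gene, triangles are lower bounds with 1 side under the floor, and open circles are other measured probe sets of the gene. Dashed lines mark 4-fold. All 4 probe sets of Ube2f lie on the dendritic side and all 4 of Ube2a and Ube2b on the eosinophil side, while those of Ube2d3 and Ube2k lie on both.

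Of 36 F-box genes, 24 were measured, and 16.7% of these passed 2-fold in either direction, against 34.5% of all measured genes. Besides Fbxo9, 2 were at least 2-fold higher in eosinophils, Fbxl20 and Fbxo4, and Fbxo21 was the gene at least 2-fold higher in dendritic cells. Fbxl20 gave 378 units in eosinophils, and its 83.7 units in dendritic cells were below the floor, at least 2.81-fold. Fbxo4, a receptor linked to cyclin D1 turnover, gave 418 units in dendritic cells and 927 in eosinophils (2.22-fold). Fbxo21 gave 348 units and 136 units, 2.56-fold, with its eosinophil signal close to the floor. Fbxl14, a receptor for the transcription factor Snail, gave 3605 units and 6939 units (1.93-fold), and was at -0.096 on the log2 scale with spike controls. Fbxo38 gave 344 units and 533 units, 1.55-fold higher in eosinophils, and turned to -0.41 with spike controls.

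Fbxw11 and Fbxw7 were under 2-fold apart. Fbxw11, a beta-TrCP protein that recognises phosphorylated I-kappaB and beta-catenin, gave 14370 units in dendritic cells and 17240 in eosinophils (1.20-fold), while another probe set differed by -0.51 on the log2 scale. Fbxw7, which marks Notch, Myc and cyclin E for destruction, gave 1897 units and 2742 units (1.45-fold). Its second probe set differed by -0.71, so the sign for Fbxw7 rested on the choice of probe set.

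Fbxw2 gave 1094 units and 759 units (1.44-fold higher in dendritic cells), but its 5 measured probe sets ran from -0.53 to 1.33. Fbxo45 gave 1206 units and 961 units, and Fbxw5 gave 186 units and 160 units. Of the other F-box genes, Fbxw8, Fbxo22, Fbxo3 and Fbxw9 were above the floor on both arrays and under 2-fold higher in dendritic cells. Under 2-fold higher in eosinophils were Fbxo25, Fbxo11, Fbxo33, Fbxo8 and Fbxo28, while another probe set of Fbxo33 differed by -0.38. For 4 genes only a lower bound is known. They include Fbxo31 (at least 1.25-fold towards dendritic cells) and Fbxw4 (at least 1.93-fold towards eosinophils). The direction of Fbxo36 depended on the probe set. The brighter was at least 1.08-fold higher in dendritic cells. The other was above the floor in eosinophils only, with 19.6 units in dendritic cells and 138.5 in eosinophils. Fbxo17 was just above the floor in dendritic cells (134.8 units) and gave 16.4 units in eosinophils.

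Under the floor on both arrays were 12 F-box genes: Fbxl12, Fbxl15, Fbxl6, Fbxl8, Fbxo15, Fbxo16, Fbxo2, Fbxo32, Fbxo42, Fbxo43, Fbxo6 and Fbxw14. They include genes known from other tissues, such as Fbxo32 (atrogin-1) of wasting muscle, Fbxo2 of brain and Fbxo43 of oocytes. The family median of 0.25 turned to -0.028 with loess, -0.054 with median centring and -0.64 with spike controls.

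Of 39 USP genes, 32 were measured and none passed 4-fold with the probe set that stood for it. In either direction 21.9% of the 32 passed 2-fold, against 34.5% of all measured genes. On the dendritic side 4 passed 2-fold. After Usp10 came Usp12, which works with the WD-repeat protein Wdr48, at 2094 units in dendritic cells and 845 in eosinophils (2.48-fold). Its other probe sets were near the floor, at 137 units or less in dendritic cells and 140 units or less in eosinophils. Usp36, a nucleolar protease, gave 318 units and lay under the floor in eosinophils with 94.6 units, at least 2.36-fold. Usp15, known to act on TGF-beta receptor complexes, gave 380 units and 163 units (2.34-fold).

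On the eosinophil side 3 USP genes passed 2-fold. Usp19, which has a form anchored in the endoplasmic reticulum membrane, gave 174 units in dendritic cells and 535 in eosinophils (3.07-fold), but another probe set differed by -0.92 on the log2 scale. Usp3, a histone H2A protease, gave 451 units and 1214 units (2.69-fold). Its second probe set gave 167 units and 984 units, a log2 difference of 2.56, past 4-fold. Usp45 gave 311 units in eosinophils against 103 units in dendritic cells, below the floor, at least 2.31-fold, and another probe set differed by at least 0.66. Of these genes, Usp3 was the one whose probe sets were all at least 2-fold apart in the same direction.

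Usp1 and Usp16 were under 2-fold apart, and for Usp22 a lower bound is known. Usp1, which acts on PCNA and FANCD2, gave 1295 units in dendritic cells and 2365 in eosinophils (1.83-fold), and its 3 probe sets ran from 0.60 to 0.87, while with spike controls it was at -0.17. Usp22, the protease of the SAGA complex, gave 257 units in eosinophils against 125 units in dendritic cells, below the floor, at least 1.91-fold. Usp16, another histone H2A protease, was higher in dendritic cells, with 287 units against 163 units (1.76-fold).

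Usp14 and Usp5 were higher in dendritic cells and Usp8 in eosinophils. Usp14, which sits on the proteasome, gave 351 units in dendritic cells and 204 in eosinophils (1.71-fold), although its other probe sets reached 0.62 on the log2 scale in the opposite direction. Usp5, which takes apart free ubiquitin chains, gave 288 units and 174 units (1.66-fold). The endosomal protease Usp8 gave 250 units against 20.4 units, at least 1.86-fold higher in eosinophils.

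Usp18 removes ISG15 and restrains type I interferon signalling. It gave 248 units in dendritic cells and 344 in eosinophils, 1.39-fold higher in eosinophils, but its log2 difference was -0.57 with spike controls. Of 8 measured interferon response genes other than Usp18, all 8 were higher in dendritic cells and 5 passed 2-fold, led by Oasl1 (1166 units against 156 units). Over all measured genes 15.5% passed 2-fold that way. For 5 of the 8 the floor fixed the direction, since they were above it in dendritic cells only. The 3 above it on both arrays each passed 2-fold, and 6 more genes of the list were under it on both arrays. With spike, median, quantile and loess scaling all 8 measured genes lay on the dendritic side, with housekeeping centring 8 of 9, and with the floor at the 25th percentile 10 of 14, where 2 were at least 2-fold higher in eosinophils. The log2 difference of Usp18, 0.47 from a single probe set, was smaller than the probe set SD.

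Usp7, the protease of Mdm2 and p53, gave 6848 units and 6298 units (1.09-fold), and Usp25 gave 386 units and 418 units (1.08-fold). Both changed sign among the scalings, Usp7 to 0.11 with loess and Usp25 to -0.16 with median centring. Usp2 gave 643 units and 347 units (1.85-fold higher in dendritic cells), and Usp34, which acts on axin, gave 569 units and 960 units (1.69-fold higher in eosinophils, -0.28 on the log2 scale with spike controls). The 7 measured probe sets of Usp9x ran from -1.38 to 1.02 on the log2 scale, around 3179 units and 4192 units for the brightest. Usp47 (1.55-fold), Usp33 (1.10-fold) and Usp53 (at least 1.09-fold) were also higher in dendritic cells. Usp48, Usp4, Usp49, Usp20, Usp38 and Usp39 were under 2-fold higher in eosinophils, while another probe set of Usp48 differed by -0.45. Usp42, Usp29, Usp43 and Usp21 were below the floor in dendritic cells and at least 1.14-fold, 1.18-fold, 1.51-fold and 1.66-fold higher in eosinophils. Under the floor on both arrays were 7 genes, Usp11, Usp13, Usp17la, Usp24, Usp26, Usp27x and Usp9y, although a second probe set of Usp24 was above it in eosinophils. The family median of 0.24 became -0.69 with spike controls and stayed above 0 with the other 4 scalings.

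**Figure D3:**
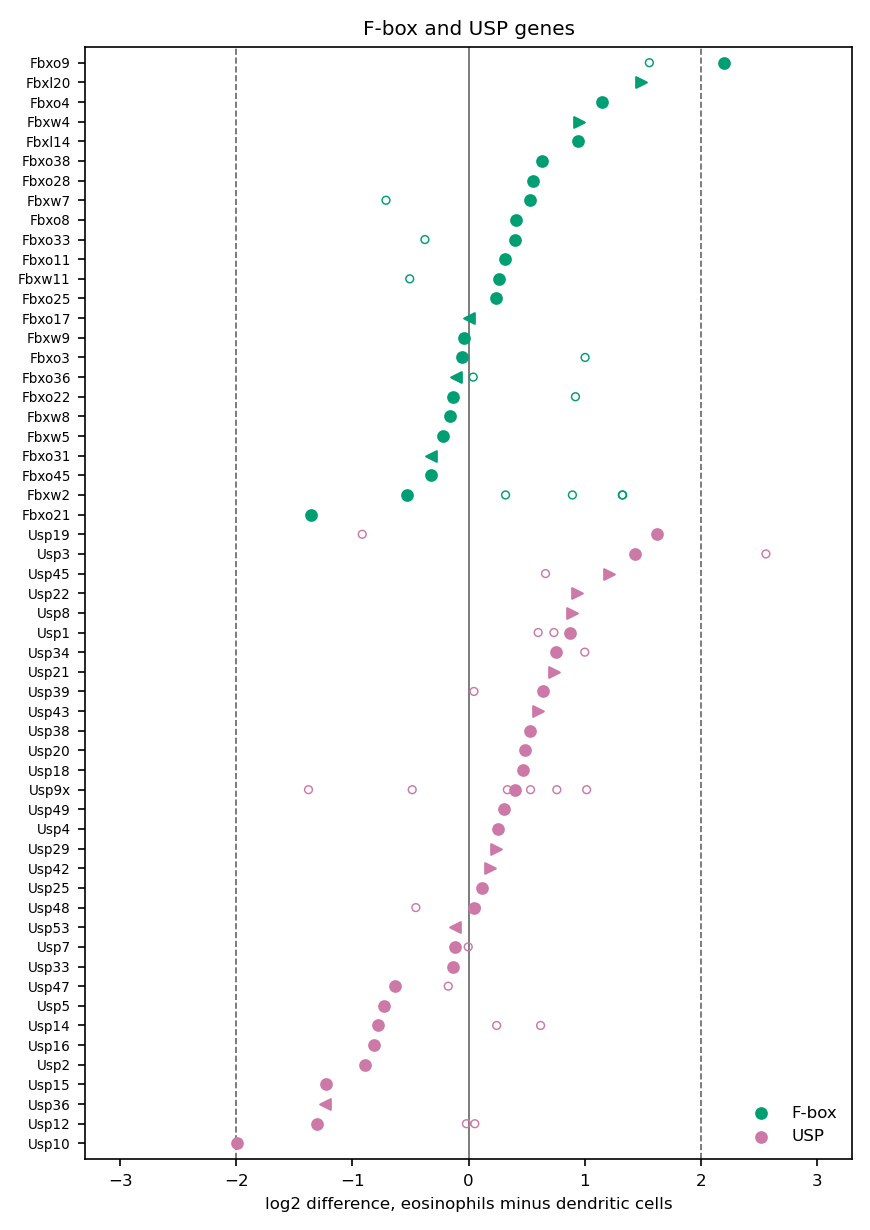
Log2 difference, eosinophils minus dendritic cells, of each measured F-box and USP gene; filled symbols are the probe set that stands for the gene, triangles are lower bounds, open circles are other measured probe sets, and dashed lines mark 4-fold. Fbxo9 lies beyond the upper line, Usp10 just inside the lower one, and the probe sets of Fbxw2, Usp9x and Usp19 fall on both sides of 0.

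Agreement between probe sets limited many of these directions. Of 33 members with at least 2 measured probe sets, all probe sets pointed the same way for 16, and they spanned at least 1 log2 unit for 13. Of the 20 members at least 2-fold apart, 9 had several measured probe sets. All of them pointed the same way for 7 of the 9, and each measured probe set passed 2-fold for 4, namely Fbxo9, Ube2a, Usp3 and Ube2j1. The first 3 were higher in eosinophils and Ube2j1 in dendritic cells.

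Other genes of the pathway were described on the same scale, leaving out members. Their lists were chosen for function, with earlier results of these data known. Over all measured genes, 19.0% passed 2-fold towards eosinophils and 15.5% towards dendritic cells. HECT ligases, which carry ubiquitin on their own cysteine, leaned towards eosinophils: of 15 measured, 8 were at least 2-fold higher there, 2 at least 4-fold, and none at least 2-fold higher in dendritic cells. Herc1 gave 221 units in dendritic cells and 1265 in eosinophils (5.72-fold), and Hace1 gave 146 units and 688 units (4.72-fold). Herc4 gave 977 units and 3238 units (3.31-fold). Itch, a ligase that restrains T helper 2 responses, gave 518 units and 1486 units (2.87-fold). The list median was 1.17, and it was 0.13 with spike controls, against the all-gene median of -0.63 on that scale, where 2 genes were at least 2-fold higher in eosinophils and 6 in dendritic cells. With probe sets averaged it was 0.37.

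RING ligases of immune signalling differed in both directions, with 7 of 22 at least 2-fold higher in eosinophils and 3 in dendritic cells. Rffl gave 301 units in dendritic cells and 4496 in eosinophils (14.9-fold), and Siah1a gave 1114 units and 6265 units (5.62-fold). Trim25, which ubiquitinates the RNA sensor RIG-I, was 3.93-fold higher in dendritic cells (16250 units against 4132 units). Xiap, an inhibitor of caspases, was 3.79-fold higher in eosinophils. The median was 0.087, and it was below 0 with median, quantile, loess and spike scaling, with the lower floor and with probe sets that can bind several transcripts left out.

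Of 4 measured genes of linear ubiquitin chains, 2 were at least 2-fold higher in dendritic cells and none in eosinophils. Tnip1, a partner of the deubiquitinase A20, gave 2286 units in dendritic cells and 471 in eosinophils (4.86-fold). Sharpin, a subunit of the linear chain ligase, gave 2785 units and 1275 units (2.18-fold). The median of -1.04 kept its sign under the 5 other scalings, and no gene passed 2-fold with probe sets that can bind several transcripts left out.

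Among other deubiquitinases, 2 of 14 passed 2-fold in each direction. Eif3h, a translation initiation subunit of the same protease fold, gave 16130 units in dendritic cells and 3743 in eosinophils (4.31-fold). Otub1, which also blocks Ube2n without catalysis, gave 3533 units and 1028 units (3.44-fold). Stambpl1 (2.76-fold) and Uchl5 (2.62-fold) were higher in eosinophils.

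For the cullin ligases themselves, 3 of 14 cores and adaptors were at least 2-fold higher in eosinophils and 1 in dendritic cells. That gene was Elob, elongin B, the adaptor of Cul2 and Cul5, with 18730 units in dendritic cells and 2908 in eosinophils (6.44-fold). With probe sets that can bind several transcripts left out, no gene of this list was at least 2-fold higher in dendritic cells. Elob and Cul2 were thus both higher in dendritic cells, although Cul2 turned to 0.46 on the log2 scale with probe sets averaged. Elongin C, Eloc, gave 4134 units in dendritic cells and 4378 in eosinophils (1.06-fold). Dcaf1 (3.26-fold), Keap1 (at least 2.32-fold) and Ddb2 (2.09-fold) were higher in eosinophils. Among NEDD8 genes outside the set, 1 of 5 passed 2-fold: Cand1, which exchanges substrate receptors on cullins, gave 1124 units and 400 units (2.81-fold higher in dendritic cells). Nedd8 itself gave 6526 units and 5303 units (1.23-fold).

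The COP9 signalosome, which removes NEDD8 from cullins, had 9 measured subunits, of which Cops8 alone passed 2-fold (721 units in dendritic cells, 294 units in eosinophils). Of 13 anaphase-promoting complex genes, 2 passed 2-fold in each direction, with Anapc5 the furthest (7834 units in dendritic cells, 2339 units in eosinophils). Of 10 SUMO genes, 2 passed in each direction, with Pias3 at 2.81-fold towards eosinophils and Sumo3 at 2.33-fold towards dendritic cells. Among 9 genes of endoplasmic reticulum-associated degradation, Rnf5 was at least 3.48-fold higher in eosinophils and Sel1l higher in dendritic cells (596 units against 198 units), the same direction as Ube2j1. Ubiquitin genes and the remaining ISG15 genes were not analysed here.

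**Figure D4:**
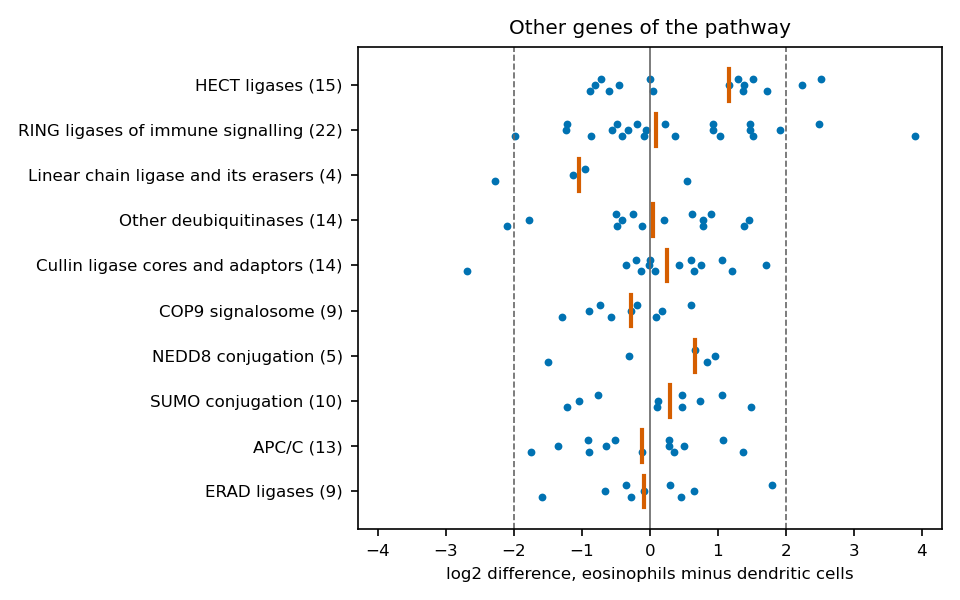
Log2 difference, eosinophils minus dendritic cells, of measured genes of 10 pathway lists, members left out; each point is a gene, its height within a row has no meaning, the orange bar is the list median and the dashed lines mark 4-fold. The HECT ligases have the median furthest to the right (1.17) and the genes of linear chains the one furthest to the left (-1.04), on the deposited scale.

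**Figure D5:**
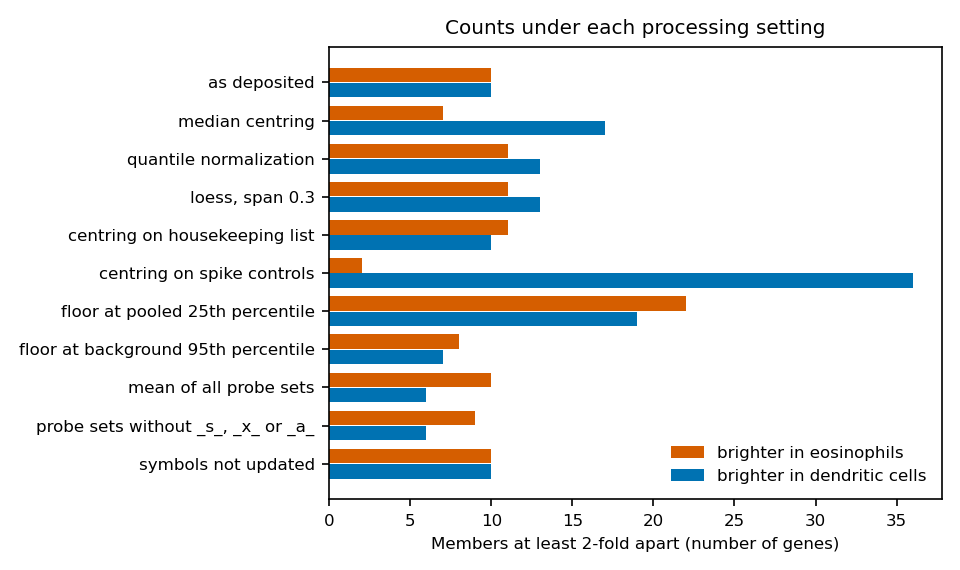
Number of the 112 genes at least 2-fold higher in eosinophils (orange) and in dendritic cells (blue) under the deposited scale and each alternative. The counts are 10 and 10 as deposited, and 2 and 36 when the arrays are scaled to their spike controls. Over all genes, the spike controls gave 489 and 3005 of 8147 measured.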

How the data were processed

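RNA was extracted with Trizol and labelled as biotinylated cDNA with the Ovation Biotin System, per the labels' protocols. The authors deposited 1 intensity per probe set on a linear scale, and the submitters' processing notes name MAS5 version 5.0. The trimmed means, without the lowest and highest 2% of signals, were 500.3 and 500.2, so both arrays share a global scale. Detection calls and a genome build are not given in the sources used here.

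Of 22690 probe sets, 64 were controls, 20393 named 1 gene, 691 named several and were not used, and 1606 had no entry in the annotation. A RefSeq table (GRCm38.p6) gave current symbols by Entrez identifier for 20364 probe sets. Differences, floors and counts were computed with Python 3.11.15 and pandas 2.3.3, and loess with statsmodels 0.14.6. The procedure was also run on simulated data, but no result given here rests on that run. It is not used as evidence for the choice of floor, probe set or array scale. The thresholds were 2-fold and 4-fold. The number of arrays, 1 per population, limits the precision, and no test was made.

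Named in full are members at least 4-fold apart, all E1 and cullin genes, in the E2, F-box and USP families the 4 with the greatest difference each way among those measured on both, and a fixed set of genes known from interferon, cell cycle and signalling, of which 6 had no single-gene probe set. Other members are named to account for the whole set. From each pathway list, up to 4 genes with the largest difference were named, and Nedd8 and Eloc were added after their values were seen. Members and lists were chosen with earlier results of these data known. The promoter of Ube2f, and the GC, CCAAT and TATA boxes, were chosen after values were seen. Alternatives were 5 scalings, other floors, other probe set rules, symbols without update and thresholds of 2-fold and 10-fold.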

Additional observations from a re-analysis of the deposited data

How the results depend on the processing

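No paired analysis was possible because each population has 1 array, and leaving out a replicate was not possible for the same reason. Centring on spike controls gave 2 members at least 2-fold higher in eosinophils and 36 in dendritic cells, of 91 measured. Over all genes it gave 489 and 3005 of 8147. At 4-fold it gave 0 and 8 members, against 161 and 1153 of all genes. The median log2 difference of the members was -0.73. Median centring gave 17 of 90 members at least 2-fold higher in dendritic cells, against 1601 of 7928 genes. At 4-fold it gave 0 members in eosinophils and 2 in dendritic cells, against 316 and 572 of all genes. The members' median was then -0.093. Quantile normalization and loess each gave 1 member in eosinophils and 2 in dendritic cells at 4-fold, of 90 measured. Over all genes quantile normalization gave 422 and 441 of 7928, and loess 401 and 461 of 7924. Lowering the floor to 41.4 units, the 25th percentile, left 110 members measured. Of these, 22 and 19 passed 2-fold in eosinophils and dendritic cells, and 4 passed 4-fold in eosinophils. Over all genes, 3009 and 2121 of 11188 passed 2-fold, and 844 passed 4-fold in eosinophils. A floor at the background level (195.7 units) gave 1 of 78 members in eosinophils at 4-fold, against 366 of 6506 genes. Averaging probe sets gave 6 of 80 members at least 2-fold higher in dendritic cells and 1 at 4-fold, and put Cul2 at 0.46. Over all genes it gave 1045 and 326 of 7090 in dendritic cells at these thresholds. Probe sets of a single transcript type gave 6 of 68 members at 2-fold in dendritic cells, against 873 of 6439 genes. In place of 4-fold, a 10-fold threshold gave 0 in eosinophils, and 2-fold gave 10 in each direction. The other values of these member counts and medians stayed within 1.5 times, or within the probe set SD of 0.73 with the same sign. Of the members named in full, Cul7, Ube2l6 and Ube2t were under the floor and have no value to compare. Among the others, 339 single values stayed within that SD and 44 did not. The sign changed in 25 of the values, from 17 members, and 13 of the 25 came with spike controls. Of these members only Cul2 was past 2-fold on the deposited scale. Dim members limit the counts: 19 measured members had a signal between the floor and the background level.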
